A study of Mus musculus with 8 samples.

Results

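A set of 9 genes from 3 families of inducible transcription factors was followed in CD11b+ cells exposed to peptidoglycan (PGN), a polymer of the bacterial cell wall: Nr4a1, Nr4a2 and Nr4a3, Egr1, Egr2 and Egr3, and Klf2, Klf4 and Klf6. They were taken by symbol, through the probe sets that the platform annotation assigns to 1 gene only, which gave 9 of the 18193 genes measured and 23 probe sets. RNA was hybridised to 8 single-channel mouse arrays. The 4 groups, with 2 arrays each, were NOD.Idd3 cells with PGN, NOD.Idd3 cells without it, NOD cells with PGN and NOD cells without it. All cells were incubated for 4 h at 37 °C, with 5 µg/ml PGN or in medium alone. NOD mice develop autoimmune diabetes spontaneously, and NOD.Idd3 is a congenic NOD strain with another allele at the Idd3 locus on chromosome 3. The labels call the 2 arrays of each group biological replicates, without saying whether these were single mice, pools or separate cultures. The tissue, age and sex of the animals are not stated in the labels.

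Values are log2 intensities. The median gene lay between 6.38 and 6.65 on the 8 arrays, the 25th percentile between 4.28 and 4.57, and replicates of a group were correlated across genes at 0.985 to 0.991. Itgam, which encodes CD11b itself, lay at 8.85 and 8.25 (NOD.Idd3 with PGN), 9.02 and 8.73 (NOD.Idd3 unstimulated), 8.36 and 7.87 (NOD with PGN) and 8.85 and 8.66 (NOD unstimulated), above the median gene on every array. The macrophage genes Cd68 and Adgre1 were bright, at 13.22 or more and 12.39 or more on all arrays, and so was the neutrophil gene S100a8, at 14.32 or more. The other macrophage markers were lower, from Mertk (5.73 to 7.65) to Vcam1 (9.77 to 12.17). Of the other neutrophil markers S100a9, Camp, Ngp, Ltf and Mmp8 lay at 11.23 or more. Cxcr2 (7.31 to 10.42), Mpo (6.97 to 7.83) and Elane (4.73 to 5.84) were lower. Of 8 measured T cell markers Cd3d was bright, between 10.18 and 12.44. Cd2 (6.94 to 8.56), Cd4 (6.63 to 7.86), Cd3e (6.51 to 7.30) and Cd3g (5.96 to 7.80) lay nearer the median gene, and Cd5, Thy1 and Cd8a under it by their means.

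The NR4A proteins (Nr4a1 is Nur77, Nr4a2 is Nurr1, Nr4a3 is NOR1) are orphan nuclear receptors whose activity is set largely by how much of them is made. The EGR proteins are zinc finger factors induced through the ERK kinases and serum response factor. Genes of both families are immediate early genes, switched on within minutes of a stimulus and usually down again within hours, so a reading after several hours shows what is left of, or sustained beyond, the first wave. KLF proteins are zinc finger factors that bind GC-rich and CACCC elements. In mouse macrophages Klf2 is known to restrain inflammatory genes, Klf6 to favour them, and Klf4 is needed for monocyte differentiation.

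Promoter windows of the 3 NR4A genes are shown because their representative probe sets moved in opposite directions with PGN. A window of Egr2 is shown as the EGR counterpart. Each holds the 250 bases before the annotated start (RefSeq, GRCm38.p6), 5′ to 3′ on the gene's strand. Capitals mark matches to TGCGTCA and to TGACGT, and to a CArG box, the element bound by serum response factor. Promoter entries were found for 7 of the 9 genes, all but Egr1 and Egr3.
Nr4a3, chr4:48045055-48045304, plus strand: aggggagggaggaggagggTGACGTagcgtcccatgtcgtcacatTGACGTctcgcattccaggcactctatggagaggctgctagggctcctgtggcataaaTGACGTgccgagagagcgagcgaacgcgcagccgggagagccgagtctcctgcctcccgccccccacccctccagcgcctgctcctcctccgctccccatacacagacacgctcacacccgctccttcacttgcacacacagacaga
Nr4a1, chr15:101266596-101266845, plus strand: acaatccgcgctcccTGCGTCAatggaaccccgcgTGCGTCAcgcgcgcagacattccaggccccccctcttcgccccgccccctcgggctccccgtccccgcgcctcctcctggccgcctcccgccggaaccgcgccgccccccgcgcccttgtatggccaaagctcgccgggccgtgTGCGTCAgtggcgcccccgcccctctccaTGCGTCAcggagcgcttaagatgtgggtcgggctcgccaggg
Nr4a2, chr2:57124004-57124253, minus strand: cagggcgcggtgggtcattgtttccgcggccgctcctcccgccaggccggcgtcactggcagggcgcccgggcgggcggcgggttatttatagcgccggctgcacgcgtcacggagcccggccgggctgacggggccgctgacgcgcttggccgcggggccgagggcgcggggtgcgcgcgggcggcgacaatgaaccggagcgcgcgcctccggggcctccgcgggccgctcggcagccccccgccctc
Egr2, start 3 of 5 annotated, chr10:67537619-67537868, plus strand: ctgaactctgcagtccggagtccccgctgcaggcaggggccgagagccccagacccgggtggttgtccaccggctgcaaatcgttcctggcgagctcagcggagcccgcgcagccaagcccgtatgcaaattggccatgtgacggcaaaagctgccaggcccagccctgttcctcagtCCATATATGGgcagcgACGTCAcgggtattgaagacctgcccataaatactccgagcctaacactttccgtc

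Both strands were searched. The window of Nr4a3 held TGACGT, the longer part of the cyclic AMP response element TGACGTCA, 3 times, with the leftmost base at -231, -205 and -147 from the start. That of Nr4a1 held TGCGTCA 4 times, at -235, -215, -71 and -42. That of Nr4a2 held neither exact string. It did hold their common core, TGACG or its reverse complement CGTCA, more than once, and windows with this core were not counted. The Egr2 window held TGACGT, on the opposite strand, at -56 and a CArG box at -72. It was the first of the annotated Egr2 starts to hold both. Starts 4 and 5 overlap it and held the same sites, start 2 held another CArG box and no TGACGT, and start 1 held neither. Of all 32851 promoter windows of this length, 6.47% held TGACGT, 1.75% TGCGTCA and 1.47% a CArG box. The full TGACGTCA, which contains TGACGT and was in 1.55% of windows, was in no window of the 7 genes. Neither were AAAGGTCA (1.34%), the element that NR4A monomers bind, or GCGTGGGCG (0.536%), the element of EGR proteins. An NF-kB site (7.25% of windows) was found at the first Egr2 start alone, at -117 and, overlapping it, -116. A match of letters is no evidence of binding.

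The first comparison asked which of the 9 genes responded to PGN, over both strains and within each. By the probe set that represents each gene, the NR4A family split: Nr4a3 and Nr4a1 rose, Nr4a2 fell, and no EGR or KLF gene passed. The Nr4a2 call was not kept with the mean of its probe sets. The Nr4a1 and Nr4a2 calls were each lost without some single arrays. The test was limma's, and a gene passed when its p-value, adjusted over all 18193 genes by the Benjamini-Hochberg method, was under 0.05. For the averaged effect of PGN 2 members rose and 1 fell, where 11.3% of all genes passed (4.86% higher and 6.4% lower). The median log2 difference was 0.06 over the 9 members and 0.05 over all genes.

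**Figure D1:**
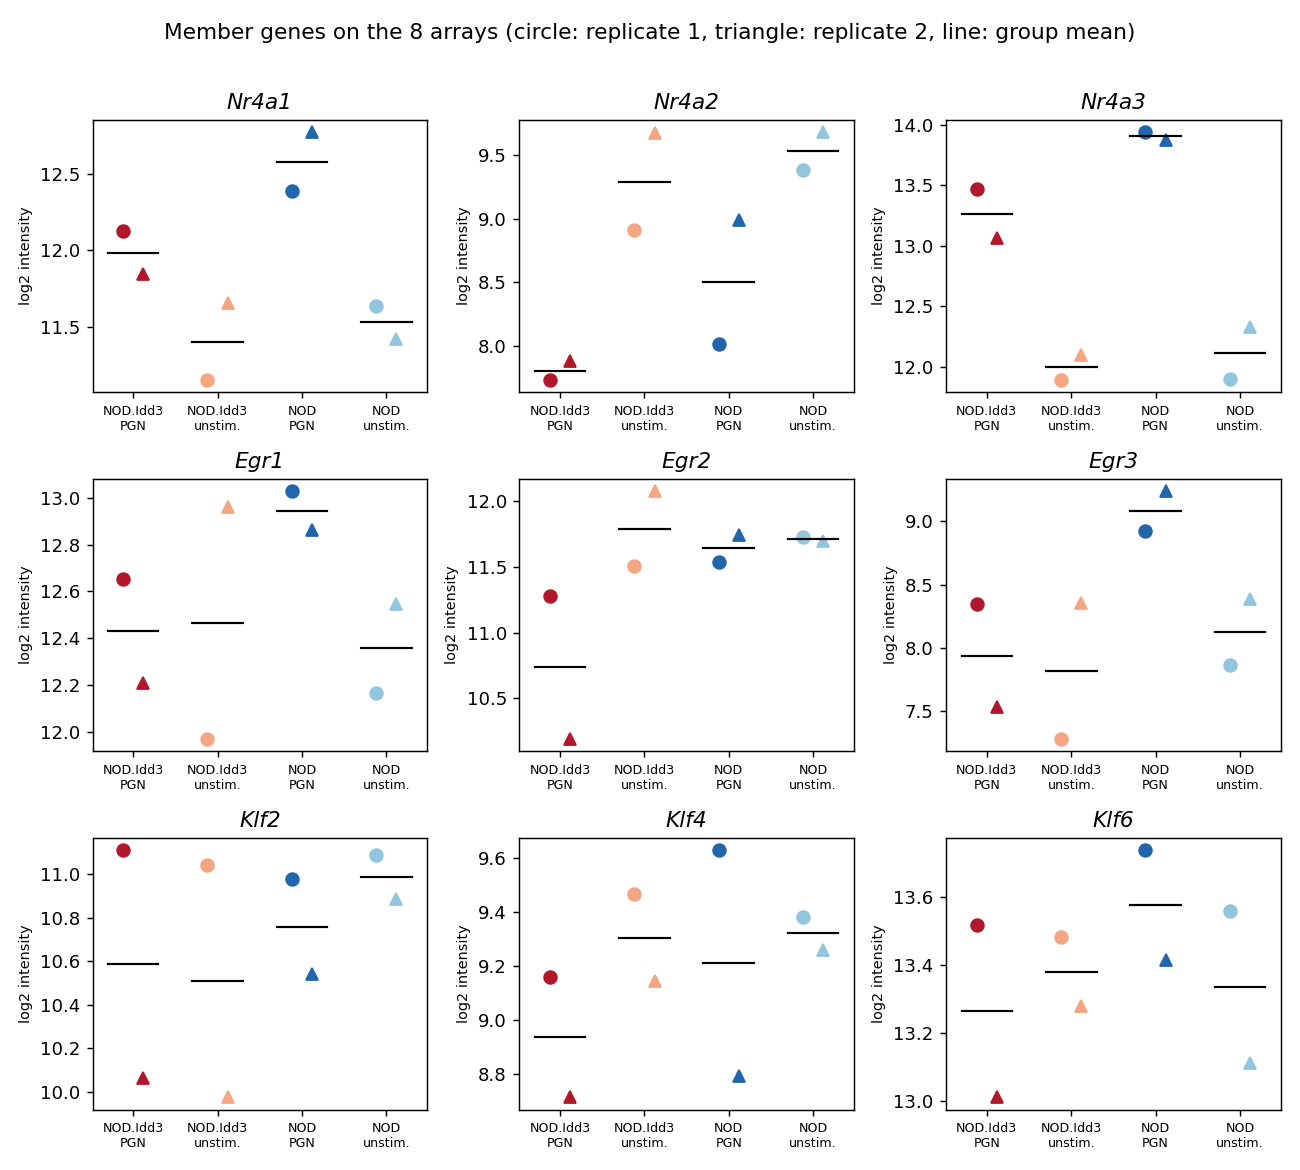
Log2 intensity of each gene on the 8 arrays, by group, with circles for replicate 1, triangles for replicate 2 and a line for the mean of the 2 arrays; each panel has its own scale. Nr4a3 and Nr4a1 lie higher on all 4 PGN arrays than on all 4 unstimulated arrays, Nr4a2 lies lower with PGN within each strain, and Klf2, Klf4 and Klf6 are higher in replicate 1 in every group.

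Nr4a3 had the smallest p of the 9. It stood at 13.47 and 13.06 in NOD.Idd3 cells with PGN, against 11.89 and 12.10 in unstimulated NOD.Idd3 cells. In NOD cells it stood at 13.94 and 13.88 with PGN, against 11.90 and 12.32 unstimulated. Every PGN array was above every unstimulated array, which held for 8.6% of all genes. The averaged rise was 1.53 ± 0.17 (limma SE, 4 arrays per condition), a 2.89-fold change (adjusted p = 0.00111). Nr4a3 passed within each strain as well, at 1.27 ± 0.24 in NOD.Idd3 (adjusted p = 0.0275) and 1.79 ± 0.24 in NOD (adjusted p = 0.00748), where 3.14% and 3.94% of all genes passed. The NOD.Idd3 call was lost without any 1 of that strain's 4 arrays (adjusted p from 0.0944 to 0.164 in limma) and the NOD call without replicate 2 of the NOD PGN arrays (0.0583), with a difference of 1.07 to 1.47 in NOD.Idd3 and of 1.82 in NOD in those fits. With the RR1 suffix that some array names carry as a term, it was 1.30 in NOD.Idd3 (adjusted p = 0.0750 in limma).

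Nr4a1, which in the mouse is needed for Ly6C-low monocytes, stood at 12.13 and 11.84 in NOD.Idd3 cells with PGN, against 11.15 and 11.65 unstimulated. In NOD cells it stood at 12.39 and 12.77 with PGN, against 11.63 and 11.42 unstimulated. Again no PGN array overlapped an unstimulated one. The averaged rise was 0.82 ± 0.18, or 1.76-fold (adjusted p = 0.0210 in limma). Within a strain it did not pass: 0.58 ± 0.25 in NOD.Idd3 (adjusted p = 0.320) and 1.05 ± 0.25 in NOD (adjusted p = 0.0582, and 0.0376 with the replicate number as a block). The averaged call was lost without replicate 2 of unstimulated NOD (adjusted p = 0.0704), replicate 2 of NOD with PGN (0.0675), replicate 1 of unstimulated NOD.Idd3 (0.0867) or replicate 1 of NOD.Idd3 with PGN (0.0693), with a difference of 0.69 to 0.76 in those fits. Within NOD.Idd3 it ranged from 0.33 to 0.83 without 1 array.

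Nr4a2 went the other way. It lay at 7.73 and 7.88 in NOD.Idd3 cells with PGN, against 8.91 and 9.67 unstimulated. In NOD cells it lay at 8.02 and 8.99 with PGN, against 9.38 and 9.68 unstimulated. The groups did not overlap within a strain, but the higher NOD PGN array (8.99) lay just above the lower unstimulated NOD.Idd3 array (8.91). Separation of 2 arrays from 2 says little alone, and the share of all genes that separate so was not counted. The averaged fall was -1.25 ± 0.25, or 0.419-fold (adjusted p = 0.0152 in limma). Within NOD.Idd3 it was -1.48 ± 0.36 (adjusted p = 0.0682) and within NOD -1.02 ± 0.36 (adjusted p = 0.163). Without replicate 1 of NOD with PGN the NOD value was -0.54 (adjusted p = 0.491 in limma), and over the omission of each array it ranged from -1.51 to -0.54 in NOD and from -1.87 to -1.10 in NOD.Idd3. Both passed with the replicate number as a block (adjusted p = 0.0115 in NOD.Idd3 and 0.0386 in NOD). The averaged call was lost without replicate 2 of unstimulated NOD (adjusted p = 0.0561) or of unstimulated NOD.Idd3 (0.0581).

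**Figure D2:**
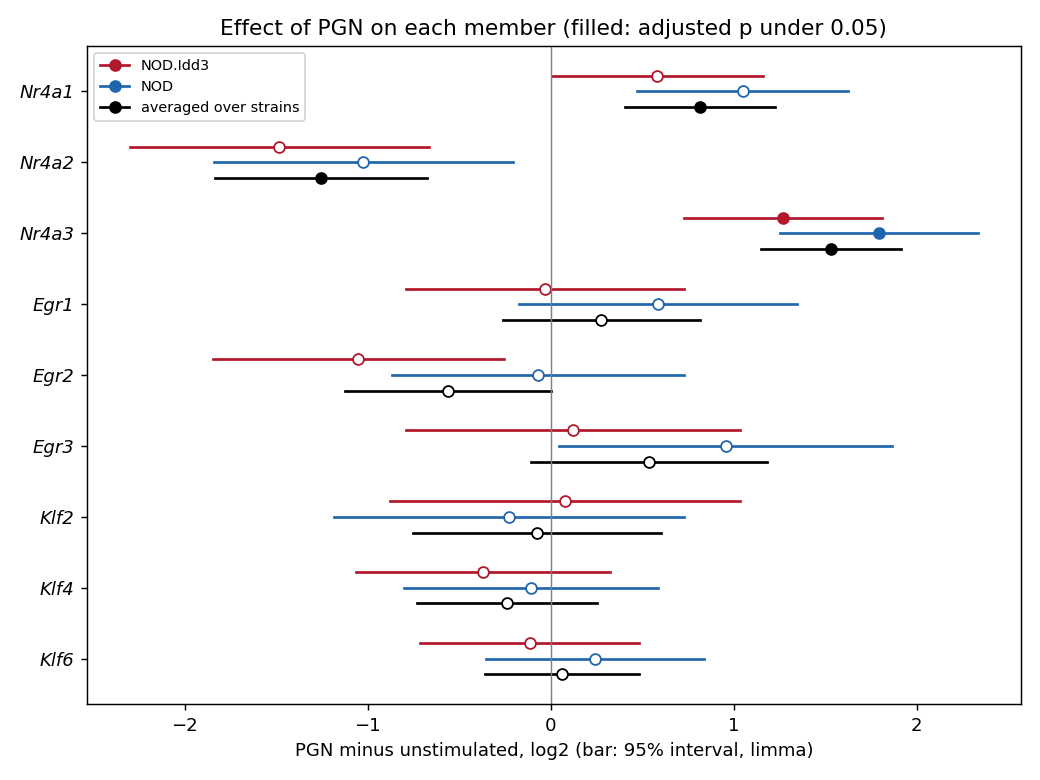
PGN minus unstimulated on the log2 scale for each gene in NOD.Idd3 (red), in NOD (blue) and averaged (black), with 95% intervals from limma; filled points have an adjusted p under 0.05. Nr4a3 (1.53) and Nr4a1 (0.82) lie right of 0 and Nr4a2 (-1.25) left of it, while the averaged intervals of the EGR and KLF genes all include 0.

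The opposite movement of Nr4a2 did not show on all of its probe sets. Of its 6 sets, 4 were lower with PGN, at -1.25 ± 0.25, -0.90 ± 0.34, -1.02 ± 0.33 and -0.39 ± 0.21. The others, with signals of 5.59 to 6.73, differed by 0.06 ± 0.19 and 0.08 ± 0.25. The set at -1.25, which represents the gene, was the 1 that passed (adjusted p = 0.0147 in limma over all 34945 probe sets). With the mean of its 6 probe sets Nr4a2 differed by -0.57 and did not pass (adjusted p = 0.0972). For Nr4a3, a dimmer probe set rose by 2.71 ± 0.21, with 6.75 and 5.78 in NOD.Idd3 cells with PGN against 3.64 and 3.84 without, and 6.45 and 6.39 in NOD cells with PGN against 3.59 and 3.46 without. Its unstimulated values lay under the arrays' 25th percentile, where background limits a difference. The remaining Nr4a3 set, at 4.21 to 5.16, differed by 0.28 ± 0.23. Nr4a1 had a single probe set.

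**Figure D3:**
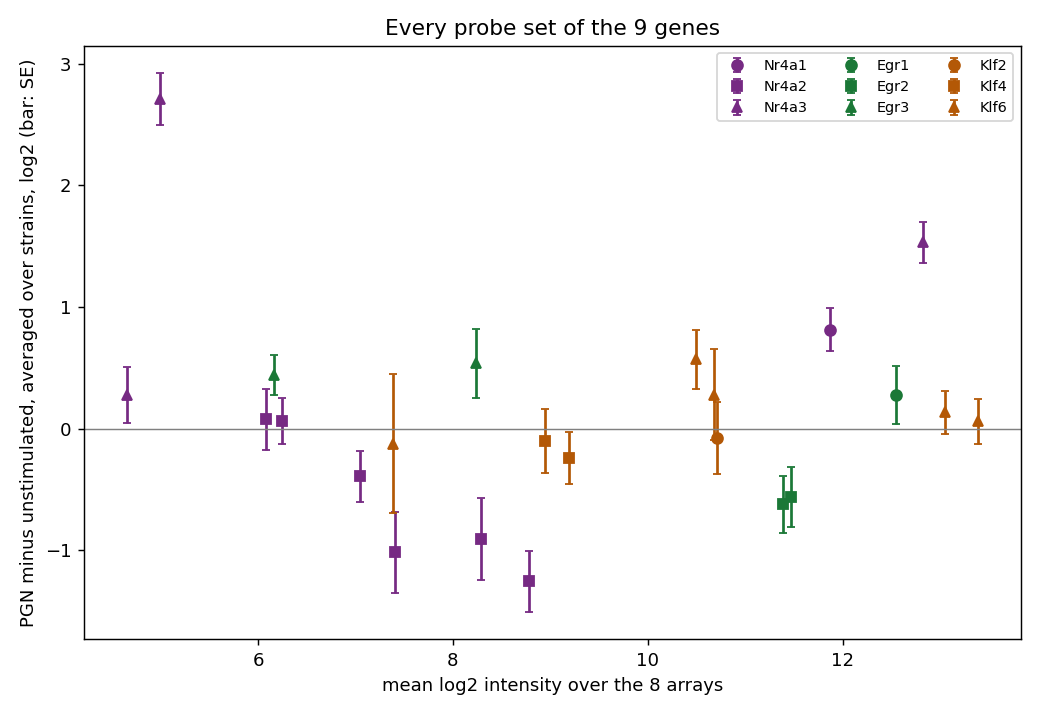
Averaged PGN difference (log2, bars are SE from the limma fit of all probe sets) of each of the 23 probe sets against its mean log2 intensity over the 8 arrays; colours mark the family and shapes the gene. The Nr4a3 sets at 1.53 and 2.71 and the Nr4a2 sets down to -1.25 lie farthest from 0, and probe sets of the EGR and KLF genes lie between -0.62 and 0.57.

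No EGR gene passed, and their values differed between strains and replicates. Egr1 lay at 12.65 and 12.21 in NOD.Idd3 cells with PGN, against 11.97 and 12.96 unstimulated. In NOD cells it lay at 13.03 and 12.86 with PGN, against 12.17 and 12.55 unstimulated. The groups were apart in NOD and overlapped in NOD.Idd3, and how many genes separate so within a strain was not counted. The averaged difference was 0.28 ± 0.24, with a 95% interval of -0.26 to 0.81 (adjusted p = 0.518 in limma). It was 0.031 without replicate 1 of unstimulated NOD.Idd3 and 0.52 without replicate 2 of that group, the ends of its range over the omission of each array.

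Egr3, which with Egr2 is known to restrain T cell activation, lay at 8.35 and 7.53 in NOD.Idd3 cells with PGN, against 7.28 and 8.35 unstimulated. In NOD cells it lay at 8.92 and 9.24 with PGN, against 7.86 and 8.39 unstimulated. The averaged difference was 0.54 ± 0.28 (interval -0.11 to 1.18, adjusted p = 0.281), and in NOD 0.96 ± 0.40 (adjusted p = 0.239). The averaged value was 0.27 without replicate 1 of unstimulated NOD.Idd3 and 0.81 without replicate 2, again the ends of its range. Its dimmer probe set differed by 0.44 ± 0.16 (adjusted p = 0.135).

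Egr2 lay at 11.28 and 10.20 in NOD.Idd3 cells with PGN, against 11.50 and 12.07 unstimulated. In NOD cells it lay at 11.53 and 11.74 with PGN, against 11.72 and 11.69 unstimulated. Within NOD.Idd3 both PGN arrays were below both unstimulated arrays, which was not counted over all genes either. The difference there was -1.05 ± 0.35 (adjusted p = 0.177 in limma), and within NOD it was -0.07 ± 0.35. The averaged difference was -0.56 ± 0.25 (interval -1.12 to 0.0036, adjusted p = 0.202), and -0.62 ± 0.24 on the second probe set. Replicate 2 of NOD.Idd3 with PGN set its size: without that array it was -0.29 (adjusted p = 0.484), and without replicate 1 of the same group -0.83 (adjusted p = 0.0442).

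By replicate number, in NOD.Idd3 the PGN difference of Egr1 was 0.68 in replicate 1 and -0.75 in replicate 2, that of Egr3 1.07 and -0.82, and that of Egr2 -0.22 and -1.88. In NOD it was 0.86 and 0.31 for Egr1, 1.06 and 0.85 for Egr3, and -0.19 and 0.047 for Egr2. Egr1 and Egr3 were higher with PGN in 3 of 4 pairs and lower in replicate 2 of NOD.Idd3. The NR4A genes kept their direction in 4 of 4 pairs: Nr4a3 and Nr4a1 were higher in every pair (20.3% of all genes were) and Nr4a2 lower in every pair (19.3% were).

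**Figure D4:**
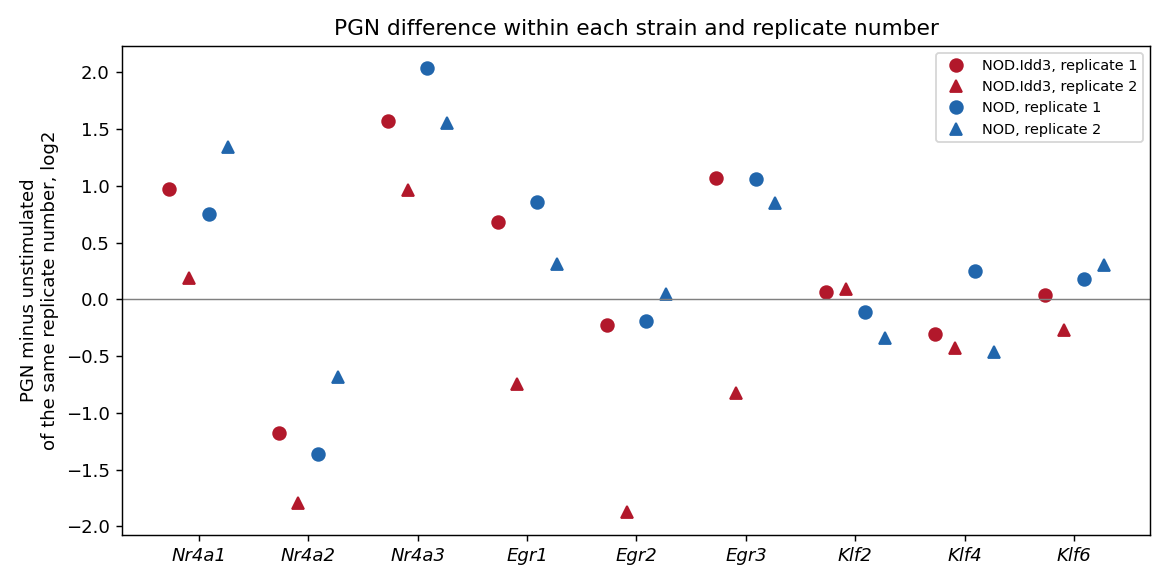
PGN minus unstimulated array of the same replicate number (log2), in NOD.Idd3 (red) and NOD (blue), circles for replicate 1 and triangles for replicate 2. Nr4a1, Nr4a3 and Nr4a2 keep their sign in all 4 pairs, and replicate 2 of NOD.Idd3 is the lowest pair for all 6 NR4A and EGR genes.

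On the probe sets that represent them, the KLF genes differed more between replicate numbers than with PGN. The mean of replicate 1 minus 2 over the 4 groups was 0.69 for Klf2, 0.43 for Klf4 and 0.37 for Klf6. Klf6 lay at 13.52 and 13.01 in NOD.Idd3 cells with PGN, against 13.48 and 13.28 unstimulated, and in NOD cells at 13.74 and 13.41 with PGN, against 13.56 and 13.11 unstimulated. The averaged difference was 0.06 ± 0.19 (interval -0.36 to 0.48, adjusted p = 0.872 in limma). Without 1 array it lay between -0.064 and 0.19. Its 4 other probe sets differed by -0.12 to 0.57, none with an adjusted p under 0.05. The set at 0.57 ± 0.24 (adjusted p = 0.186 in the limma fit of all probe sets) differed by 0.58 in NOD.Idd3 and 0.57 in NOD. The highest gene of an array lay at 14.53 to 15.17.

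Klf2 lay at 11.11 and 10.06 in NOD.Idd3 cells with PGN, against 11.04 and 9.98 unstimulated, and in NOD cells at 10.98 and 10.54 with PGN, against 11.09 and 10.89 unstimulated. The averaged difference was -0.07 ± 0.30 (interval -0.75 to 0.60, adjusted p = 0.905). A fall by as much as 0.75 and a rise by as much as 0.60 are thus both within the error. Klf4 lay at 9.16 and 8.71 in NOD.Idd3 cells with PGN, against 9.47 and 9.14 unstimulated, and in NOD cells at 9.63 and 8.79 with PGN, against 9.38 and 9.26 unstimulated. Its averaged difference was -0.24 ± 0.22 (interval -0.73 to 0.25, adjusted p = 0.544), and -0.10 ± 0.26 on its other probe set.

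All 3 KLF genes were higher in replicate 1 than in replicate 2 in 4 of 4 groups, which held for 9.33% of all genes. The difference ran from 0.20 to 1.07 for Klf2, 0.12 to 0.84 for Klf4 and 0.20 to 0.51 for Klf6. Nr4a2 was lower in replicate 1 in 4 of 4 groups (16.1% of all genes were), by 0.15 to 0.98. The remaining 5 genes had no constant sign. What the replicate number stands for beyond a shared date in the array names of replicate 1 is not stated in the labels.

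The next question was whether the strains differed, in their response or in level. No member and no other gene passed for the difference in response (0 of 18193 in limma, with 1.73% at an unadjusted p under 0.05). By group means 8 of 9 members responded lower in NOD.Idd3 than in NOD, all but Klf2, where 46.4% of all genes did. The median difference in response was -0.47 over the members and 0.03 over all genes. It was -0.98 ± 0.50 for Egr2 (interval -2.11 to 0.15), -0.83 ± 0.57 for Egr3, -0.62 ± 0.47 for Egr1, -0.52 ± 0.34 for Nr4a3, -0.47 ± 0.36 for Nr4a1 and -0.46 ± 0.51 for Nr4a2, each with an adjusted p of 1.00.

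That pattern lay mainly in 1 replicate number. In replicate 2 the difference in response was -1.92 for Egr2, -1.67 for Egr3, -1.16 for Nr4a1, -1.11 for Nr4a2 and -1.06 for Egr1. In replicate 1 it was -0.037 for Egr2, 0.0037 for Egr3, 0.22 for Nr4a1, 0.19 for Nr4a2 and -0.18 for Egr1. Only 4 members (Egr1, Egr2, Nr4a3 and Klf6) were lower in both numbers, where 23.6% of all genes were. For Nr4a3 the values in replicates 1 and 2 were -0.46 and -0.59. Without replicate 2 of NOD.Idd3 with PGN, the 6 NR4A and EGR genes lay between -0.32 and -0.53.

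Averaged over both conditions, all 9 genes were lower in NOD.Idd3 than in NOD by group means, where 55.4% of all genes were, with a median of -0.36 against -0.03 over all genes. None passed in the main fit, and no other gene did (0 of 18193 in limma, with 6.46% at an unadjusted p under 0.05). That fit has no term for the replicate number. With the replicate number as a block some genes passed, none of them a member. Among the members Egr3 had the largest difference at -0.72 ± 0.28 (interval -1.37 to -0.08, adjusted p = 0.746), followed by Nr4a2 at -0.47 ± 0.25 and Egr2 at -0.41 ± 0.25. Without 1 array the Egr3 value ranged from -0.99 to -0.46, and on the other Egr3 probe set the strain difference was -0.09 ± 0.16. Egr3, Nr4a2 and Nr4a3 were lower in 4 of 4 pairs of the same condition and replicate number (9.89% of all genes were), though unstimulated Nr4a2 in replicate 2 differed by only -0.0045. For unstimulated cells alone Egr1, Egr2 and Klf6 were higher in NOD.Idd3, by 0.11, 0.079 and 0.046.

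Over the 8 arrays the members fell into 3 loose groups. The points share the PGN contrast and the replicate number, so the correlations describe these arrays only. Nr4a1 and Nr4a3 had a Pearson r of 0.91, Egr1 and Egr3 0.89, and Egr3 and Nr4a1 0.81. Egr2 was closest to Nr4a2, at 0.71, and Nr4a2 ran against Nr4a3, at -0.67. The 3 KLF genes were correlated with each other at 0.65 to 0.68. Each member was also set beside 10907 non-member genes at or above the 40th percentile of mean level. The highest of so many correlations over 8 arrays is high by selection alone, and how high was not tested. The closest to Nr4a3 were Dusp4 (r 0.99), a MAP kinase phosphatase gene that rose by 2.47, and Col4a2 (0.98). The closest to Nr4a2 were Tbl1xr1 and Pdxp (0.98 each), and to Nr4a1 Spata17 and Ssr3 (0.97 each). Klf6 was closest to Jun (0.98), an AP-1 gene that differed by 0.06 with PGN, and then Nabp1 (0.97). Egr1 was closest to Zadh2 (0.91) and Zfp330 (0.90), Egr2 to Jtb (0.96) and Spty2d1 (0.95), and Egr3 to Lypd1 and Rcn1 (0.93 each). Klf2 was closest to 4930571B16Rik and Clk4 (0.97 each), and Klf4 to Pnisr (0.97) and 1700037C18Rik (0.96).

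Other genes of the same pathways were described by lists, chosen as the members were with earlier results of these data known. Of 19 other immediate early genes, 8 rose with PGN over both strains, 1 fell and 10 did not pass (median 0.51, against 0.05 over all genes). Dusp2, a MAP kinase phosphatase gene, rose by 2.33 ± 0.19, Maff by 2.21 ± 0.22, Junb by 1.57 ± 0.16 and Fosl1 by 1.34 ± 0.21, the last 3 encoding bZIP factors. The 1 that fell was Fos (-0.81 ± 0.18, adjusted p = 0.0243 in limma), while Fosb rose by 1.55 ± 0.28, both named after their values were seen. Nr4a3 and Nr4a1 moved in the direction of Junb, Fosb and Maff, and Nr4a2 in that of Fos.

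Among 23 measured of 28 upstream kinases and transcription factors, 4 rose and 3 fell (median -0.02). The falls were Mef2c (-1.60 ± 0.24) and Mef2d (-0.74 ± 0.15), MADS-box factors known to drive Nr4a1 and, downstream of the kinase ERK5, Klf2 and Klf4, and Foxo3 (-1.22 ± 0.15). Mef2a, of the same family, did not pass (0.18 ± 0.14). The rises included Crtc2, a coactivator of CREB (0.93 ± 0.20), while its relatives Crtc1 (-0.64 ± 0.18) and Crtc3 (0.13 ± 0.21) did not pass. Mef2a, Crtc1 and Crtc3 were named after their values were seen. Map3k8, the TPL2 kinase that carries Toll-like receptor signals to ERK, rose by 1.11 ± 0.28, Crem by 0.64 ± 0.17 and Map2k1, which encodes MEK1, by 0.59 ± 0.15, these 3 named after their values were seen. Of 7 partners and relatives of the EGR and NR4A proteins, Rxrb, a retinoid X receptor gene, fell (-0.82 ± 0.15) and 6 did not pass (median 0.10), among them Rxra (-0.37 ± 0.18), Wt1 (0.35 ± 0.17) and Egr4 (0.13 ± 0.16).

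Of 13 measured among 14 further KLF genes, Klf7 rose (0.68 ± 0.17, adjusted p = 0.0392 in limma), and 12 did not pass (median -0.16), among them Klf9 (-0.40 ± 0.24), Klf11 (-0.39 ± 0.26) and Klf15 (0.21 ± 0.15). Of 6 measured of 7 genes tied to KLF2 in lymphocytes and endothelium, Ccr7, a chemokine receptor gene, rose by 1.64 ± 0.22. Itgal, an integrin gene, fell by 0.61, and 4 did not pass (median 0.11 over the 6). These were Nos3 at 0.62 ± 0.17, Itgb7 at 0.67 ± 0.25, Thbd at -0.71 ± 0.34 and S1pr1 at -0.39 ± 0.23. Thbd and S1pr1 were named after their values were seen.

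Markers of other cells moved with PGN as well, and in bulk RNA fewer cells of a type and less RNA per cell cannot be told apart. Of 8 Ly6C-low monocyte markers 3 fell and 0 rose, where 6.4% of all genes fell and 4.86% rose. The falls were Cx3cr1 at -2.66, Spn at -1.18 and Itgal at -0.61, while Nr4a1 rose. Of the 5 that did not pass, Cd36 differed by -1.54 ± 0.42 (adjusted p = 0.0503 in limma), Fcgr4 by -0.21, Treml4 by -0.10, Ace by -0.08 and Pou2f2 by 0.10. The summed linear intensity of the 8 was 18187 to 22482 in NOD.Idd3 with PGN against 26771 to 27749 unstimulated, and 16267 to 20307 in NOD with PGN against 24736 to 27064 unstimulated. Treml4 made up 36.5% to 57.4% of it. Of 8 measured T cell markers Cd3d fell by 1.48 and 7 did not pass: Cd3g differed by -0.92 ± 0.28, Thy1 by 0.75 ± 0.33, Cd5 by -0.33, Cd4 by -0.25, Cd2 by -0.23, Cd3e by -0.18 and Cd8a by -0.02. Their sum was 2474 to 2663 in NOD.Idd3 with PGN against 4688 to 5774 unstimulated, and 1856 to 2172 in NOD with PGN against 3850 to 6750 unstimulated. Cd3d made up 62.7% to 87.4% of that sum. Without Cd3d the sum was 577 to 783 in NOD.Idd3 with PGN against 727 to 730 unstimulated, and 693 to 775 in NOD with PGN against 728 to 1176 unstimulated, so it overlapped in both strains. The markers that did not pass were named in full after their values were seen. The sum of 6 B cell markers was 624 to 942 in NOD.Idd3 with PGN and 723 to 1285 without, against 1250 to 2186 in NOD with PGN and 1707 to 4375 without. That of 8 macrophage markers was 20527 to 24576 and 17890 to 18493 in NOD.Idd3 with and without PGN, against 28483 to 29332 and 23071 to 23274 in NOD. The sum of 5 platelet markers was 731 to 1088 in NOD.Idd3 with PGN and 1838 to 3253 without. In NOD it was 1104 to 1331 with PGN and 3448 to 6450 without. B cell, macrophage and platelet sums were thus lower in NOD.Idd3, as the 9 members were by group means. Pf4 made up 48.5% to 66.3% of the platelet sum. Without Pf4 the sum with PGN was 280 to 538 in NOD.Idd3 and 372 to 627 in NOD, so it overlapped between strains. The B cell sum without Cd79b and the macrophage sum without Cd68 did not overlap in either condition. Strain differences of single markers ran from -1.71 to 0.03 (B cell), -1.56 to -0.13 (macrophage) and -0.75 to -0.05 (platelet). The share of gene sets that separate so was not counted. The sums of the remaining marker lists overlapped between strains in at least 1 condition. The part of these cells in the results was not tested.

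Of the other marker lists, neutrophil genes had 2 falls among 9 (Mmp8 and Cxcr2), the rest at -0.48 to 0.02. Platelet genes had 2 falls among 5 (Pf4 and Ppbp), the rest at -0.12 to 0.32. Stromal and endothelial genes had 2 rises among 6 (Kdr and Pecam1), the rest at -0.10 to 0.12. Macrophage markers had 1 rise among 8 (Vcam1), the rest at -0.44 to 0.52. Of all genes 4.86% rose and 6.4% fell. None passed among 6 B cell, 4 NK cell and 5 dendritic cell markers, nor did Ccr2, the 1 measured of 4 Ly6C-high monocyte markers. No marker passed for the strain difference.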

How the data were processed

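Labelled total RNA from the 8 samples was hybridised to single-channel arrays. Per the submitters' processing notes the values were made with RMA, whose version and chip definition are not stated in the labels. Deposited values are linear intensity values (3.97 to 42906), so RMA's log2 values had been raised back, and log2 was taken of each deposited value. No further normalization or filter was applied. Probe sets were named through the platform annotation and gene IDs matched to RefSeq (GRCm38.p6). Of 45101, control (64), unnamed (9160) and multi-gene (932) probe sets were left out, and the probe set of highest mean stood for each of 18193 genes.

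Contrasts of the 4 group means over all 8 arrays were fitted and tested in R 4.3.3 with limma 3.58.1 (lmFit, eBayes; 4 residual and 4.69 prior degrees of freedom), with Benjamini-Hochberg adjustment over all genes and a threshold of 0.05. The fit was tested on simulated data, with noise drawn independently for each array. Those data held no difference shared by arrays of a replicate number, so the test cannot show its effect on the fit. Replicate numbers were taken as pairing the arrays, since those of replicate 1 share a date in the array names and the replicate differences of any 2 groups were correlated across genes (r 0.17 to 0.42). The main fit has no such term. The alternatives were the replicate block, the RR1 suffix of the array names as a term, a variance trend, a filter at the 40th percentile, the mean of all probe sets, omission of _x_at and _s_at sets, a fit of all probe sets, quantile normalization, the omission of each array in turn, and fits of the compared arrays alone. The members and lists, the rule for naming genes (all members, up to 4 genes of each list by p for the averaged PGN effect, and the 2 most alike genes of each member) and the alternatives were chosen with earlier results of these data known. The number of arrays limits the precision.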

Additional observations from a re-analysis of the deposited data

How the results depend on the processing

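Of 756 log2 differences of single members under the alternatives, 708 kept their direction and their side of the threshold, 13 lost and 10 gained a call, and 25 changed sign, none of them called. The number of members called for the averaged PGN effect was 3, and 1 to 3 without 1 array (1111 to 2139 genes in all, against 2049), where Nr4a3 was called each time. In NOD it was 1 (Nr4a3), 0 to 1 without 1 array (77 to 876 genes, against 717), 3 with the replicate block, and 2 with the variance trend, without genes under the 40th percentile and with the mean of all probe sets, each adding Nr4a1. In NOD.Idd3 it was 1, 0 to 2 without 1 array (56 to 624 genes, against 572), 2 with the replicate block and with the 4 arrays compared, and 0 with the RR1 suffix as a term (235 genes; Nr4a3 at 1.30, adjusted p = 0.0750 in limma). With the replicate block 3082, 1586 and 1207 genes passed for the averaged, NOD and NOD.Idd3 effects, and 27 for the strain difference, none of them a member. The 4 arrays alone gave 416 genes in NOD. The fit of all 34945 probe sets called 3933, 1403 and 1058 of them. The replicate block changed no other call of a member. The causes were not tested, apart from the fewer arrays or more features that an alternative itself brings.

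Signs changed as follows without 1 array. The averaged PGN effect of Klf2 ran from -0.34 to 0.19 and of Klf6 from -0.064 to 0.19. In NOD it ran from -0.17 to 0.033 for Egr2 and from -0.53 to 0.31 for Klf4. In NOD.Idd3 it ran from -0.53 to 0.46 for Egr1, -0.41 to 0.66 for Egr3, -0.46 to 0.61 for Klf2 and -0.37 to 0.14 for Klf6, and quantile normalization gave 0.011 for Egr1. The difference in response ran from -0.95 to 0.029 for Nr4a2, -0.23 to 0.84 for Klf2 and -0.68 to 0.16 for Klf4, and the strain difference from -0.45 to 0.045 for Egr1 and -0.35 to 0.064 for Klf4. Among unstimulated arrays alone the strain difference was 0.11 for Egr1, 0.079 for Egr2 and 0.046 for Klf6. With 2 arrays a group, the direction of these genes is within the error.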
